A study of Homo sapiens with 6 samples.

Results

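The ubiquitin and proteasome genes described here were every protein-coding gene in the count files whose symbol starts with UBE2 (except UBE2C), USP and a digit, OTUD, TRIM and a digit, FBXO, FBXL, FBXW, RNF and a digit, CUL and a digit, KLHL, KCTD, HERC or PSMA to PSME, with a mean of at least 10 counts. The rule reads names and counts, not the response to GABA. It took 130 of the 4449 protein-coding genes and of the 5187 genes listed in all. GENCODE annotates 467 coding genes with such names, of which 133 were listed, and USP17L7, RNF148 and TRIM67 were left out at mean counts of 5.67, 6.33 and 6.17. The lowest member, FBXO24, had a mean of 17.0 counts. Most of these proteins place, read or remove ubiquitin or form the proteasome, but the names do not guarantee it: PSMC3IP is a meiotic recombination protein, and KCTD12 is best known as an auxiliary subunit of the GABA-B receptor.

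Ubiquitin is a small protein that is joined to other proteins in a chain of 3 enzyme steps. An E1 enzyme activates it, an E2 enzyme (mostly named UBE2) carries it, and an E3 ligase picks the target. Most RNF and TRIM proteins are RING-type ligases, and HERC proteins belong to the HECT type. Cullins are scaffolds that hold exchangeable adaptors, the F-box proteins for CUL1 and many KLHL and KCTD proteins for CUL3. Deubiquitinases of the USP and OTUD families remove ubiquitin. Many tagged proteins end in the 26S proteasome, a 20S core (PSMA and PSMB subunits) capped by a 19S particle (PSMC and PSMD subunits) that binds and unfolds them. PSME proteins are alternative activators of the core, and in liver as elsewhere this system sets the lifetime of metabolic enzymes, cell cycle regulators and stress factors.

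The libraries came from Huh7, an established human hepatocellular carcinoma line, in a series on GABA synthesis and gene regulation in metastasis of this cancer. GABA, gamma-aminobutyric acid, is the main inhibitory neurotransmitter and is also made outside the nervous system. Huh7 cells in DMEM with fetal bovine serum and no added GABA gave 3 control libraries, and the same line treated with GABA for 24 h gave 3 GABA libraries; no genetic change is named for either group. The labels give no dose, and they call the libraries biological replicates without saying whether these were separate cultures or days, so p-values measure the spread between these libraries.

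The files hold a selected list of genes, which bears on every count and every adjusted p-value below. File order follows the p-value of this comparison (Spearman correlation 0.93 over the genes tested), and log2 fold changes smaller than 0.12 in size do not occur among them. Counts on the listed genes summed to 7702666 to 8392945 per library, and the members held 2.06% to 2.13% of them. Levels are CPM, counts scaled with TMM to a common total on the listed genes, and each log2 fold change sets GABA against control and carries its standard error from edgeR. Of 13 hepatocyte markers 0 are listed, so the identity of the line was not checked here, and 0 of 5 immune and 0 of 4 endothelial markers are listed. Of 4 markers of kidney or cervix lines 3 are listed, PAX2, HOXB7 and HOXB9, with summed mean levels of 348 CPM in control and 413 CPM with GABA. Of 6 fibroblast markers 1 is listed, PDGFRB, at 40.3 and 20.2 CPM. Because the list is selected, markers listed or missing do not show which cells were present. The part of the listed markers in the results was not tested. Control replicate 3 stood apart: its mitochondrial transcripts took 9.11% of counts, against 7.14% to 7.74% in the other controls and 6.66% to 7.04% with GABA. Without it 5 members lost their call, among them UBE2S (adjusted p = 0.089), RNF130 (0.063), RNF138 (0.081) and USP33 (0.13).

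Members moved in both directions in about equal numbers, by small amounts. With GABA, 58 of the 130 members were higher, 71 were lower and 1, UBE2M, did not pass (adjusted p under 0.05 in edgeR). Of all 4981 genes tested, 98.7% passed, 47.6% higher and 51.2% lower, so the members' shares lay near those of the list as a whole. The median log2 fold change was -0.18 over the members and -0.18 over all tested genes, and the median absolute value was 0.34 against 0.40. Values ran from -1.32 (TRIM73) to 1.67 (FBXO15), with 103 members under 0.5 in size and 10 at 1 or more. In 121 members the CPM of the groups did not overlap, against 92.5% of all genes tested. DESeq2 gave 107 called members, 59 higher and 48 lower, so which direction is the more frequent depends on the scaling. All 130 members passed the filter on low counts.

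**Figure D1:**
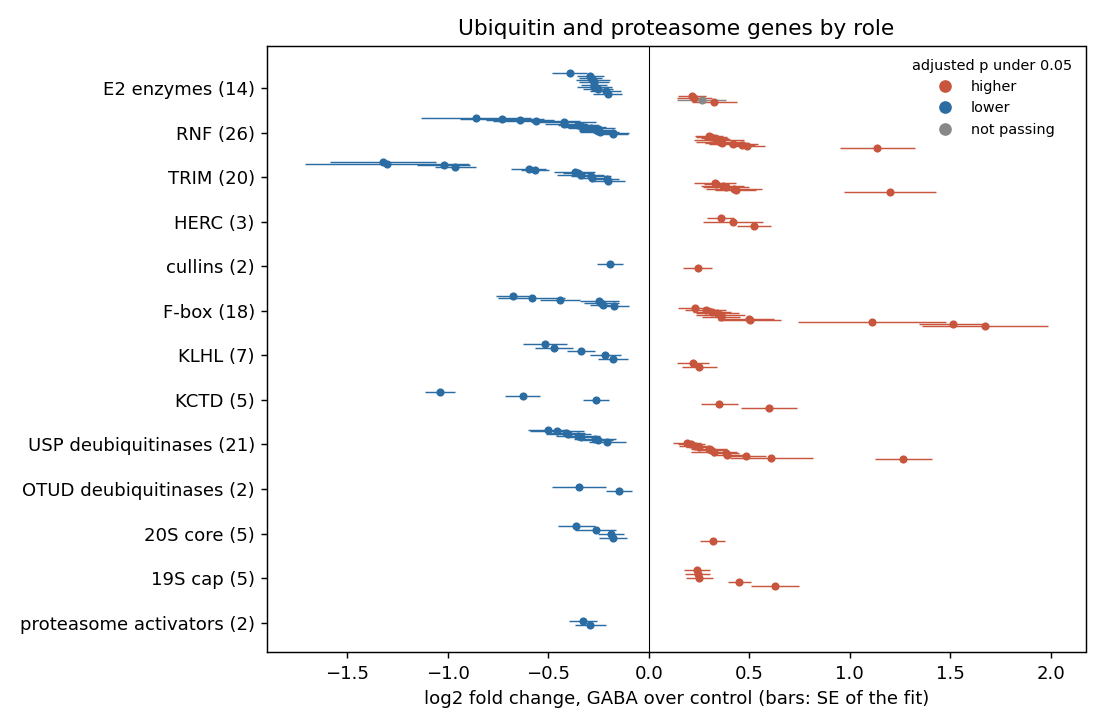
Log2 fold change of each member, GABA over control, by role, with the number of members in parentheses. Points are the edgeR estimates, bars their standard errors, and colours the call. The 19S cap and HERC rows lie wholly to the right of 0, the activator and OTUD rows wholly to the left, and the largest values on either side belong to F-box, TRIM, USP, RNF and KCTD genes.

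RPS27A fell and UBA1 rose, at the entry of the pathway. RPS27A, which encodes ubiquitin fused to a ribosomal protein, stood at 2174, 2174 and 2325 CPM in control libraries 1, 2 and 3 and at 1761, 1658 and 1583 CPM in GABA libraries 1, 2 and 3. The groups were well apart, and the log2 fold change was -0.42 ± 0.06 (SE, adjusted p = 2.2e-04). UBA1, the main E1 enzyme, went the other way, from 871 ± 33.3 to 1089.9 ± 38.7 CPM (SD, n = 3), with 0.32 ± 0.06 (SE, adjusted p = 7.3e-04). Of the 9 tested genes of E1 enzymes and of ubiquitin-like modifiers 4 rose, 4 fell and ATG3 did not pass (-0.19, adjusted p = 0.056). Of all genes tested 47.6% were higher and 51.2% lower. NAE1 and UBA3, which together activate NEDD8, the modifier of cullins, fell at -0.43 ± 0.09 and -0.23 ± 0.09. The partners of the SUMO E1 split, with SAE1 at 0.20 ± 0.06 and UBA2 at -0.32 ± 0.08.

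Of the 14 E2 enzymes 10 fell and 3 rose (median -0.26 on the log2 scale), beside the backgrounds of 51.2% lower and 47.6% higher. None moved by more than 0.39. UBE2V2, the catalytically inactive partner of UBE2N in making K63-linked chains, had the largest fall, from 173, 144 and 180.3 CPM in controls 1 to 3 to 126, 129.8 and 123 CPM with GABA. Every GABA library lay below every control, and the value was -0.39 ± 0.09 (SE, adjusted p = 0.0022). UBE2H, an E2 of the CTLH ligase, went from 859.9, 936 and 938 CPM to 751, 753 and 733 CPM. Its groups were also apart (-0.29 ± 0.06 SE, adjusted p = 0.0014). UBE2D3, a broad E2 used by many RING ligases, went from 551, 565 and 643 CPM to 487, 474 and 477 CPM. Control 3 was its highest library, and the value was -0.29 ± 0.07 (SE, adjusted p = 0.0031). UBE2G2 and UBE2G1, E2 enzymes of K48 chains with UBE2G2 serving degradation from the endoplasmic reticulum, had -0.27 ± 0.06 and -0.28 ± 0.08. UBE2A and UBE2B, the paralogs that serve RAD18 and RNF20, had -0.27 ± 0.07 and -0.21 ± 0.08. UBE2K, UBE2E1 and UBE2L6, the last of these the E2 of the interferon-induced modifier ISG15, fell by 0.25, 0.20 and 0.27.

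The E2 genes that rose were UBE2T, UBE2S and UBE2R2. UBE2T, the E2 of the Fanconi anaemia pathway, went from 29.98, 28.0 and 34.7 CPM to 37.6, 40.3 and 38.2 CPM. The groups did not overlap, with 0.33 ± 0.11 (SE, adjusted p = 0.016). The call was lost without control 1 (adjusted p = 0.053), control 2 (0.055) or GABA 2 (0.06). UBE2S, which extends K11 chains for the anaphase-promoting complex, had 0.23 ± 0.09, with control 2 inside the GABA range, and lost its call without control 1 or 3 or GABA 1 or 2 (adjusted p 0.084 to 0.12). UBE2R2, an E2 of cullin-RING ligases, had 0.22 ± 0.07, and lost its call without control 1 or GABA 2 (adjusted p = 0.058 and 0.081). UBE2M, the E2 of NEDD8, stood at 208, 250.3 and 167 CPM and 265, 263 and 222 CPM, an overlap, and missed the threshold at 0.26 ± 0.12 (SE, adjusted p = 0.051). It passed under 7 other settings, among them DESeq2 (adjusted p = 0.016) and the fit without control 2 (0.0026). Reads of UBE2S and UBE2M are uncertain, since 26.3% and 36.5% of their transcripts match pseudogenes at 95% identity or more. Among the E2 genes that fell, UBE2B and UBE2E1 lost their calls without GABA 1 (adjusted p = 0.087 and 0.067), UBE2B also without GABA 2 (0.057) and UBE2E1 without GABA 3 (0.079). With DESeq2 size factors in edgeR both missed the threshold too (adjusted p = 0.055 and 0.054), and 8 E2 genes fell. Each of the 2 genes lost its call in 5 of 15 settings.

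**Figure D2:**
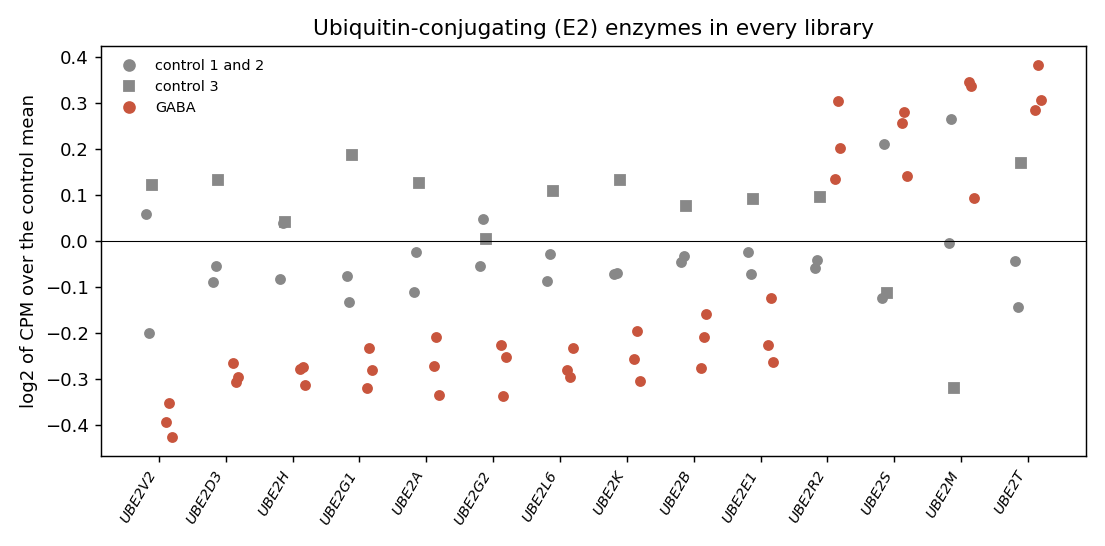
Each E2 gene's CPM in every library as log2 of the value over the mean of the 3 controls, so 0 is the control mean. Grey circles are controls 1 and 2, grey squares control 3 and red points GABA. The 10 genes at the left fell and have every GABA point below 0, and control 3 is the highest control in most of them.

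Control 3 was high in most E2 genes. It lay a median of 0.18 (log2) above the mean of controls 1 and 2 over the 10 that fell and 0.15 over the 3 that rose. This median was -0.01 over all genes tested, 0.07 over those that fell and -0.11 over those that rose. Without control 3 all 10 that fell kept their call. The part of that library in the size of the change was not tested.

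The listed proteasome genes moved in both directions. All 4 listed subunits of the 19S cap rose, while 4 of 5 listed subunits of the 20S core and both activators PSME1 and PSME2 fell. These 11 genes are 5 higher and 6 lower, near the backgrounds of 47.6% and 51.2%, and a difference between cap and core was not tested. Of 19 annotated core genes 5 are listed, of 21 genes named as cap subunits 5 (with PSMC3IP), and of 5 genes with PSME symbols 2. In the cap, PSMD2 (ENSG00000175166, chromosome 3, 184298709.0 to 184309054.0, GRCh38 in GENCODE as for the other positions of genes), the large scaffold subunit also called RPN1, had 655, 669 and 615 CPM in controls 1, 2 and 3 and 885, 895 and 871 CPM with GABA. Every GABA library was higher than every control, by 0.45 ± 0.06 (SE, adjusted p = 8.2e-05), the largest change of the 11 genes. PSMC4, an ATPase of the unfolding ring, went from 215, 238 and 228 CPM to 271, 278 and 262 CPM, also without overlap (0.25 ± 0.07 SE, adjusted p = 0.0051). PSMD13, the lid subunit RPN9, went from 260.1, 249.5 and 252 CPM to 289, 312 and 302 CPM (0.24 ± 0.06 SE, adjusted p = 0.0047). PSMD8, the lid subunit RPN12, went from 202, 196 and 191 CPM to 227, 241 and 227 CPM. Its groups were apart as well (0.24 ± 0.06 SE, adjusted p = 0.0055), and all 4 calls held in each of the 15 other settings. PSMC3IP, taken by its symbol, rose from 19.5 ± 1.40 to 30.2 ± 1.70 CPM (0.63 ± 0.12) and is no part of the proteasome.

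In the 20S core, PSMB3, a structural beta subunit, was the member that rose, from 252, 252 and 248 CPM to 302, 329.6 and 306 CPM. The groups were apart (0.32 ± 0.06 SE, adjusted p = 0.0013). PSMB9, the beta1i subunit that interferon puts into the immunoproteasome, went from 94.6, 103 and 84.1 CPM to 76.0, 73.1 and 70.2 CPM. Each GABA library was below each control, with -0.36 ± 0.09 (SE, adjusted p = 0.0046). PSMB6, the constitutive subunit that PSMB9 replaces, went from 204, 207 and 193 CPM to 178, 178 and 173 CPM. It had -0.19 ± 0.06 (SE, adjusted p = 0.016), and its call was lost without GABA 3 (adjusted p = 0.062) and in DESeq2 (0.077). PSMA1 and PSMA5, structural alpha subunits, had -0.26 ± 0.10 (adjusted p = 0.027) and -0.18 ± 0.07 (adjusted p = 0.029). Each of these lost its call in 7 settings, for PSMA1 without control 2 or any GABA library (adjusted p 0.064 to 0.089) and for PSMA5 without control 1 or any GABA library (0.069 to 0.098). The count of core genes that fell was thus 4 in the reported fit and 1 to 4 with a library left out, 1 in DESeq2 and 2 after a correction for GC content and length, with PSMB9 called in every setting.

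The activators PSME1 and PSME2 form a ring, PA28 alpha and beta, that opens the core without ATP and is induced by interferon gamma. PSME1 went from 201, 197 and 236 CPM to 172, 174 and 173 CPM. PSME2 went from 203, 219.6 and 193 CPM to 169, 158 and 164 CPM. GABA libraries were below every control for both genes, with -0.29 ± 0.08 (SE, adjusted p = 0.0055) for PSME1 and -0.33 ± 0.07 (SE, adjusted p = 0.002) for PSME2, and both calls held in each of the 15 other settings. Of the PSME2 transcript 51.3% matches its pseudogenes at 95% identity or more. Per kilobase of all annotated exons merged, the control level was highest for PSMB3 (213 CPM per kb), followed by PSMB6 (139) and PSMD2 and PSME1 (119 each). It was lowest for PSMA1 (14.7) and PSMB9 (30.6). This order depends on the length used. The merged exons of PSMB9 and PSMA1 span 3072 and 3301 bases, and their longest coding transcripts 792 and 1527 bases.

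**Figure D3:**
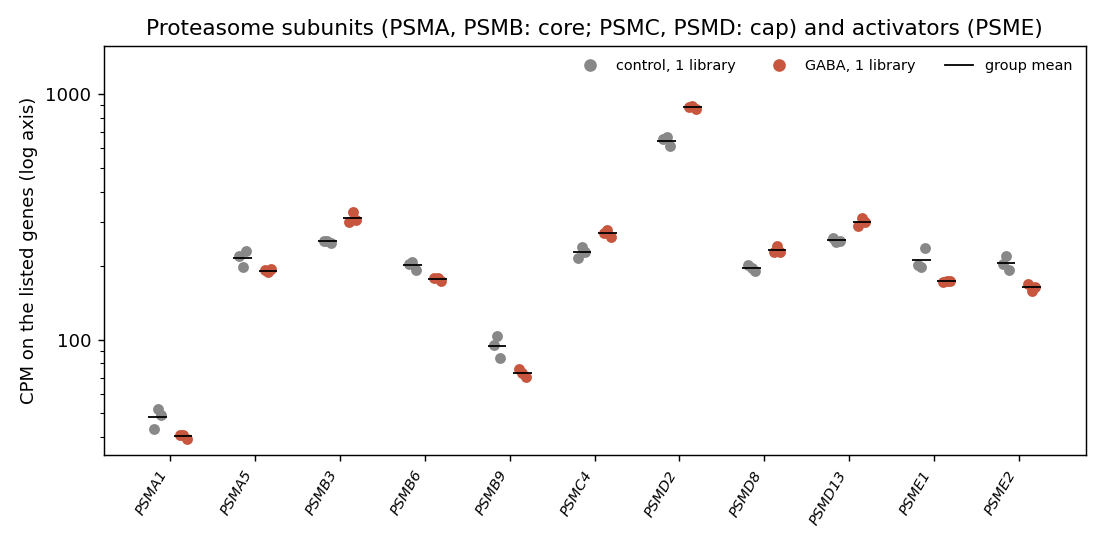
CPM of the 11 proteasome subunits and activators in every library, on a log axis; grey points are controls, red points GABA libraries and black lines group means. The 4 cap genes and PSMB3 have their red points above the grey ones, and the other core genes and PSME1 and PSME2 have them below, without overlap in any of the 11.

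Transcripts of proteasome subunits are known to be raised by the factors NRF1 (NFE2L1) and NRF2 (NFE2L2), which bind the antioxidant response element. NFE2L1 had -0.29 ± 0.09 (SE, adjusted p = 0.012), from 1005, 1098 and 808 CPM to 814, 757 and 805 CPM, with GABA 1 above control 3. NFE2L2 had -0.34 ± 0.11 (SE, adjusted p = 0.013), from 358, 357 and 496 CPM to 305, 334 and 319 CPM. Its control 3 lay far above controls 1 and 2, and the part of that library in the change was not tested. Of the 11 tested genes of proteasome assembly and regulation outside the name rule 8 fell and 3 rose (median -0.29). The backgrounds were 51.2% lower and 47.6% higher over all genes tested (median -0.18), and a common direction was not tested. PSMG1, a chaperone that assembles the alpha ring, fell most (-0.57 ± 0.10 SE, adjusted p = 5.3e-04), and AKIRIN2, which brings proteasomes into the nucleus, rose (0.31 ± 0.08 SE, adjusted p = 0.0044). The element, searched as TGACNNNGC on both strands from 250 bases before to 50 after the start, was in 5 of the 10 proteasome promoters in the RefSeq table, those of PSMB3, PSMB9, PSMC4, PSME1 and PSME2. It was in 15.7% of the 108 members with a promoter there, in 13.6% of all promoters in the table and in 15.3% of those of tested genes. The matches belong to genes that rose and to genes that fell. The 4 windows upstream of a start are shown to compare the sites (RefSeq promoters, GRCh38.p14, 5′ to 3′ along the gene, the element in capitals, reverse-complemented in PSMB9), and a match describes letters, not binding.
PSMB3, chr17:38752617-38752665, plus strand: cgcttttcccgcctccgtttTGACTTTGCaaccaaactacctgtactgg
PSMB9, chr6:32854024-32854072, plus strand: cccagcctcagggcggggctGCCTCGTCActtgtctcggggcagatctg
PSME1, chr14:24136088-24136136, plus strand: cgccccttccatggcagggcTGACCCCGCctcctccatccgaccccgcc
PSME2, chr14:24146757-24146805, minus strand: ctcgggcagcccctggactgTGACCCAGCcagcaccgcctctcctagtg

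Of the 20 TRIM genes 13 fell and 7 rose (median -0.29), where 51.2% of all genes tested were lower and 47.6% higher. TRIM16 (ENSG00000221926, chromosome 17, 15627960.0 to 15684311.0), an E3 ligase tied to the oxidative stress response and autophagy of damaged membranes, went from 114, 143 and 94.8 CPM in controls 1 to 3 to 60.6, 60.2 and 53.1 CPM with GABA. The lowest control was well above the highest GABA library, with -1.02 ± 0.13 (SE, adjusted p = 8.2e-05). TRIM16L (ENSG00000108448, chromosome 17, 18697998.0 to 18736118.0), its truncated copy, went from 192, 199.8 and 152 CPM to 99.8, 89.0 and 90.2 CPM. It too was lower in each GABA library (-0.96 ± 0.10 SE, adjusted p = 2.4e-05). The TRIM16L transcript matches TRIM16 over 100% of its length, so the reads of the 2 genes cannot be told apart with certainty. TRIM25, the interferon-induced ligase that activates the RNA sensor RIG-I, stood at 609.7, 635 and 541 CPM and 399, 388 and 419 CPM. It had -0.57 ± 0.07 (SE, adjusted p = 7.1e-05) without overlap. TRIM2, a ligase known from neurofilament turnover, went from 95.5 ± 5.89 to 63.0 ± 2.96 CPM (SD, n = 3), with -0.60 ± 0.09 (SE, adjusted p = 1.8e-04). TRIM73 and TRIM74, near-identical copies on chromosome 7, had the lowest fold changes (-1.32 ± 0.26 and -1.30 ± 0.41) at 5.74 ± 1.25 and 4.01 ± 1.35 CPM in control; the call of TRIM74 was lost without control 1 (adjusted p = 0.052).

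Among the TRIM genes that rose, TRIM63, the muscle ligase MuRF1, went from 6.92, 5.96 and 3.82 CPM to 12.2, 11.1 and 15.1 CPM. GABA libraries were all higher, at low counts (1.20 ± 0.23 SE, adjusted p = 8.8e-04). TRIM28, the KAP1 corepressor that works with KRAB zinc finger proteins, went from 538, 495 and 492 CPM to 628, 641 and 656 CPM. Its groups were apart (0.34 ± 0.06 SE, adjusted p = 7.1e-04), and the call was lost after the GC and length correction (adjusted p = 0.053). TRIM24, TRIM35, TRIM46, TRIM52 and TRIM68 rose by 0.33 to 0.43, and TRIM46 lost its call without GABA 3 (adjusted p = 0.067).

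The 26 RNF genes had 11 higher and 15 lower, 42.3% and 57.7% of them against 47.6% and 51.2% of all genes tested. RNF182, a membrane-bound RING ligase, had the smallest p among them, at 177, 175 and 187 CPM in control and 246, 258 and 239.9 CPM with GABA. No library crossed over, and the value was 0.46 ± 0.07 (SE, adjusted p = 1.5e-04). RNF169, which limits the repair response at DNA breaks, went from 99.3, 96.3 and 81.9 CPM to 127, 137 and 127 CPM (0.49 ± 0.09 SE, adjusted p = 6.3e-04). RNF145, a sterol-responsive ligase of the endoplasmic reticulum, went from 165, 163 and 166 CPM to 211, 204 and 211 CPM. Its 3 values per group were tightly spaced (0.34 ± 0.06 SE, adjusted p = 7.5e-04), although 49.9% of its transcript matches a copy at 95% identity or more. RNF208 rose from 6.99 ± 1.21 to 15.4 ± 1.82 CPM (1.14 ± 0.18 SE, adjusted p = 3.6e-04), the largest change among RNF genes. RNF20, a ligase of histone H2B, rose from 157 ± 3.85 to 196 ± 7.96 CPM (0.33 ± 0.07 SE, adjusted p = 0.0013). At the other end RNF122 had -0.86 ± 0.27 and RNF224 had -0.73 ± 0.21, both under 10 CPM, and RNF122 lost its call without control 1 (adjusted p = 0.067). RNF217, an RBR ligase of the iron exporter ferroportin, went from 82.8 ± 8.69 to 61.9 ± 2.71 CPM (-0.42 ± 0.10 SE, adjusted p = 0.0027). The number of RNF genes that fell was 9 in DESeq2 or without GABA 3, and 6 without GABA 2.

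All 3 listed HERC ligases, of 6 annotated, rose, where 98.7% of all genes tested passed and 47.6% were higher. HERC1, a very large ligase of the RLD and HECT type, went from 128, 136 and 110.0 CPM to 181, 173 and 184 CPM. The highest control was below the lowest GABA library (0.52 ± 0.08 SE, adjusted p = 3.3e-04). HERC2, which acts in DNA repair and p53 regulation, went from 198, 206 and 180.2 CPM to 245, 251 and 253 CPM (0.36 ± 0.07 SE, adjusted p = 9.9e-04), with 38.8% of its transcript shared with pseudogenes. HERC3 had 23.3, 18.3 and 17.0 CPM and 28.8, 23.0 and 26.7 CPM, where control 1 exceeded GABA 2. Its value was 0.42 ± 0.15 (SE, adjusted p = 0.018), and the call was lost without GABA 1 (adjusted p = 0.077) or GABA 3 (0.052). In HERC genes control 3 lay a median of 0.26 below the mean of controls 1 and 2. For all tested genes that rose this median was -0.11. Without control 3 all 3 HERC genes kept their call.

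The cullin-RING scaffolds and adaptors had no common direction. CUL4A, the scaffold that pairs with DDB1, went from 587, 563 and 637 CPM to 526, 519 and 517 CPM. All GABA libraries were lower (-0.19 ± 0.06 SE, adjusted p = 0.013), and the call was lost in DESeq2 (adjusted p = 0.051) and after the GC and length correction (0.12). CUL9, a p53-binding cullin also called PARC, went from 165, 189 and 167 CPM to 207, 200.4 and 209 CPM (0.24 ± 0.07 SE, adjusted p = 0.0084). The other 6 annotated cullins were not analysed here. Of the 29 tested genes of the cullin-RING core, its regulators and substrate receptors outside the name rule 11 rose and 18 fell (median -0.18). Of all genes tested 47.6% were higher and 51.2% lower, with the same median of -0.18. DDB2, the p53-induced receptor of DNA damage, and IVNS1ABP, a KLHL relative, had the smallest p (0.69 ± 0.07, adjusted p = 2.4e-05, and 0.68 ± 0.07, adjusted p = 2.7e-05).

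The 18 F-box genes had 11 higher and 7 lower (backgrounds 47.6% and 51.2%), and the largest rises in the whole set. FBXO43 (ENSG00000156509, chromosome 8, 100133360.0 to 100145800.0), also called EMI2, an inhibitor of the anaphase-promoting complex in meiosis, went from 6.19, 6.99 and 6.61 CPM to 19.8, 20.7 and 16.2 CPM. Each GABA library was more than 2 times the highest control, with 1.51 ± 0.17 (SE, adjusted p = 3.2e-05). FBXO15, a stem cell F-box gene, went from 1.82, 2.72 and 0.890 CPM to 5.78, 5.94 and 5.66 CPM. These are low counts, 7 to 21 reads in control and 45 to 48 with GABA, with 1.67 ± 0.31 (SE, adjusted p = 8.5e-04). FBXO24, best known from testis, rose at 1.33 and 2.91 CPM on average (1.11 ± 0.37) and lost its call without control 2 (adjusted p = 0.052). FBXL17, a receptor that checks the pairing of BTB domains, had the smallest p among the falls, at 88.1, 87.4 and 87.9 CPM and 55.4, 54.9 and 54.5 CPM. The libraries of each group nearly coincided (-0.68 ± 0.08 SE, adjusted p = 5.2e-05). FBXL20, known from synaptic vesicle release, went from 117, 105 and 136 CPM to 83.6, 89.7 and 90.0 CPM (-0.44 ± 0.10 SE, adjusted p = 0.0021). FBXW7, the receptor for cyclin E and MYC, had 0.34 ± 0.11, from 38.7 ± 3.54 to 49.0 ± 3.17 CPM. BTRC, a receptor for beta-catenin and IkB outside the name rule, had -0.41 ± 0.08.

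**Figure D4:**
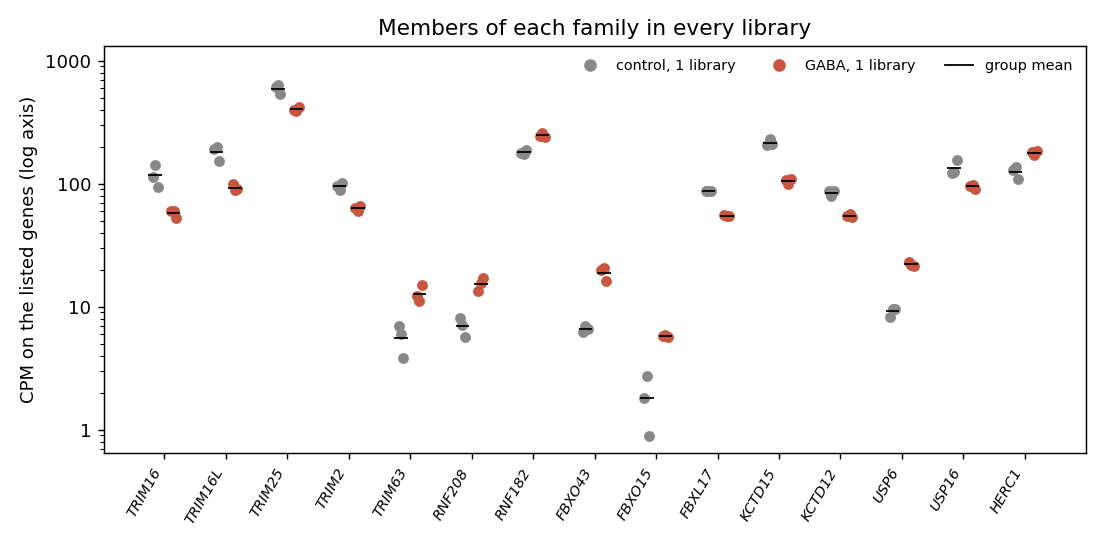
CPM of 15 members in every library on a log axis, ordered by family; grey points are controls, red points GABA libraries and black lines group means. The groups are apart in all 15; TRIM16 and TRIM16L lie between 50 and 200 CPM with the GABA points lower, and FBXO15 stands at 0.890 to 2.72 CPM in control.

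KCTD genes included the member with the smallest p of all 130. KCTD15 (ENSG00000153885, chromosome 19, 33795933.0 to 33815763.0), a BTB protein known as an inhibitor of AP-2 factors and as an obesity-associated gene, went from 206, 231 and 212 CPM to 107, 99.5 and 109 CPM. The level with GABA was 105 ± 5.15 CPM against 216 ± 13.2 (SD, n = 3), with -1.04 ± 0.07 (SE, adjusted p = 1.9e-06). KCTD12 (ENSG00000178695, chromosome 13, 76880166.0 to 76886390.0), which binds the GABA-B receptor and speeds its desensitisation, went from 86.9, 79.4 and 88.0 CPM to 54.6, 56.6 and 53.6 CPM. Every GABA library was lower (-0.63 ± 0.09 SE, adjusted p = 1.4e-04). KCTD8 and KCTD16, the other receptor partners of this kind, were not analysed here. KCTD20 had -0.26 ± 0.06 (SE, adjusted p = 0.0037). KCTD7 and KCTD17 rose, at 0.35 ± 0.09 (SE, adjusted p = 0.0052) and 0.60 ± 0.14 (SE, adjusted p = 0.0027), and the 5 calls held in each of the 15 other settings.

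Of the 7 KLHL genes 5 fell and 2 rose, beside 51.2% and 47.6% of all genes tested. KLHL23 and KLHL15, the latter a CUL3 adaptor for the repair factor CtIP, had the largest changes. KLHL15 went from 61.9, 69.0 and 71.6 CPM to 46.4, 48.5 and 51.2 CPM (-0.47 ± 0.10 SE, adjusted p = 0.0014). KLHL23 went from 64.8 ± 7.45 to 45.3 ± 3.75 CPM (-0.52 ± 0.11 SE, adjusted p = 0.0018). Both were lower in every GABA library, and so was KLHL42, a CUL3 adaptor for the microtubule-severing protein katanin (-0.33 ± 0.07 SE, adjusted p = 0.0015). KLHL12, the adaptor for the COPII coat protein SEC31, rose by 0.25, a call that was lost without GABA 1 (adjusted p = 0.11), and 50.8% of its transcript matches a copy. KLHL24 and KLHL9 lost theirs without GABA 1 or 3 (adjusted p 0.068 to 0.15), and the number of KLHL genes that fell was 3 without either library.

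Of the 21 USP deubiquitinases 12 rose and 9 fell, beside 47.6% and 51.2% of all genes tested. USP6 (ENSG00000129204, chromosome 17, 5116438.0 to 5175034.0), a hominoid-specific oncogene, went from 8.25, 9.58 and 9.67 CPM to 23.0, 21.8 and 21.4 CPM. GABA libraries were more than 2 times the highest control (1.27 ± 0.14 SE, adjusted p = 3.5e-05), while 64.2% of its transcript matches copies such as USP32 pseudogenes, so its reads are uncertain. USP11, a nuclear deubiquitinase linked to BRCA2, went from 241, 240.3 and 238 CPM to 315, 324 and 301 CPM. The 3 controls nearly coincided and lay below all GABA libraries (0.39 ± 0.06 SE, adjusted p = 3.5e-04). USP20, which acts on HMG-CoA reductase and the beta-2 adrenergic receptor, went from 146, 164 and 139 CPM to 201, 199 and 188 CPM (0.39 ± 0.08 SE, adjusted p = 0.0011). USP22, the deubiquitinase of the SAGA complex, rose from 798 ± 52.4 to 948 ± 24.1 CPM (0.25 ± 0.06 SE, adjusted p = 0.0044). USP16, which takes ubiquitin off histone H2A, had the largest fall, from 123, 125 and 156 CPM to 96.5, 98.6 and 90.6 CPM. No library crossed over (-0.50 ± 0.10 SE, adjusted p = 0.0011), and control 3 was the highest control. USP47, a deubiquitinase of DNA polymerase beta, fell from 353 ± 29.9 to 279 ± 9.08 CPM (-0.34 ± 0.07 SE, adjusted p = 0.0019). Both OTUD genes fell by small amounts. OTUD1 had 38.7, 38.8 and 42.7 CPM and 32.8, 36.8 and 25.1 CPM, without overlap and with -0.35 ± 0.14 (SE, adjusted p = 0.027), and lost its call without GABA 1 or 3 (adjusted p = 0.054 and 0.13). OTUD4 had -0.15 ± 0.06 (SE, adjusted p = 0.042) and lost its call in 9 of 15 settings, among them every fit without a GABA library or without control 1 (adjusted p 0.066 to 0.16). Of its transcript 42.2% matches a pseudogene at 95% identity or more. Of 8 tested deubiquitinases outside the name rule 5 rose and 3 fell. TNFAIP3, the NF-kB inhibitor A20, more than doubled, from 26.2, 27.5 and 26.7 CPM to 68.3, 64.5 and 60.3 CPM (1.26 ± 0.10 SE, adjusted p = 2.7e-06), and UCHL1 fell (-0.44 ± 0.09 SE, adjusted p = 9.6e-04).

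Of 21 genes with member names on a list of known interferon-induced genes, chosen with earlier results in view, 8 are in the files. Of these 7 fell and 1 rose (median -0.31), where 51.2% of all genes tested were lower and 47.6% higher. Those that fell were TRIM25, TRIM38, TRIM69, PSMB9, PSME1, PSME2 and UBE2L6. TRIM38, which restrains Toll-like receptor signalling, stood at 104, 105 and 101 CPM and 80.5, 81.0 and 80.7 CPM. The GABA libraries were within 1 CPM of each other and all lower (-0.35 ± 0.08 SE, adjusted p = 0.0018). TRIM69, which limits some RNA viruses, went from 40.5, 41.8 and 39.6 CPM to 33.4, 31.5 and 34.8 CPM, also apart (-0.29 ± 0.10 SE, adjusted p = 0.017). Its call was lost without GABA 2 (adjusted p = 0.067) and in DESeq2 (0.064). USP18, the enzyme that removes ISG15 and damps the interferon receptor, was the member that rose, from 9.59, 7.64 and 5.85 CPM to 12.5, 9.95 and 12.9 CPM. The highest control was under the lowest GABA library by less than 1 CPM, with 0.61 ± 0.21 (SE, adjusted p = 0.016), and the call was lost without GABA 1 or 3 (adjusted p = 0.053 and 0.06). USP18 shares 43.1% of its transcript with its copy USP41. Of 17 tested interferon-induced genes that are no members 15 fell and 2 rose (median -0.32, against -0.18 over all genes tested). IFI35, an interferon-induced leucine zipper protein, had -0.47 ± 0.08 (SE, adjusted p = 6.2e-04).

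Interferon-stimulated genes often carry an interferon-stimulated response element, which was searched as GAAA, any 2 bases and GAAA again, on both strands in the same promoter table after the values were known. It was found in 7 of the 108 members with a promoter there (6.48%), in 3.65% of all promoters in the table and in 2.97% of those of tested genes. The 7 were OTUD4, PSME1, PSME2, TRIM16, TRIM2, TRIM44 and TRIM69. All 7 are among the 57 members with a promoter that fell, and 0 are among the 50 that rose. The direction of the genes and the motif were both known when this was counted, so it is a description. Only PSME1, PSME2 and TRIM69 of the 7 are on the interferon list. The 5 windows upstream of a start are shown because they belong to members that fell (RefSeq promoters, GRCh38.p14, 5′ to 3′ along the gene, the element in capitals, reverse-complemented in TRIM69).
PSME2, chr14:24146611-24146658, minus strand: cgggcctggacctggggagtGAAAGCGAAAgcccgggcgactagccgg
TRIM69, chr15:44736446-44736495, plus strand: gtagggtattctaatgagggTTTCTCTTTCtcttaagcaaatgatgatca
TRIM44, chr11:35662720-35662769, plus strand: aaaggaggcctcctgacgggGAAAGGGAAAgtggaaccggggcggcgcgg
TRIM2, chr4:153151926-153151975, plus strand: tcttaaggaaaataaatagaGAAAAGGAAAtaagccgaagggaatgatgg
TRIM16, chr17:15683002-15683051, minus strand: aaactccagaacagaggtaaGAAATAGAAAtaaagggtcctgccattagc
The element of PSME2 lies 28 bases before the start and those of TRIM44, TRIM69, TRIM16 and TRIM2 lie 35, 62, 80 and 217 bases before it. A cAMP response element, TGACGTCA, was in 2 members (1.85%, FBXL20 and UBE2S) and in 1.98% of all promoters. The interferon gamma-activated sequence, TTCNNNGAA, was in 4 members (3.70%: PSMC4, TRIM16, TRIM2 and USP27X), in 7.88% of all promoters and in 6.29% of those of tested genes, and in 0 of the 7 interferon-induced members with a promoter.

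Of 20 members with known roles in the cell cycle or DNA damage 10 rose and 10 fell (median 0.02). This split lay near the backgrounds of 47.6% higher and 51.2% lower over all genes tested (median -0.18). FBXO43, RNF169, TRIM28 and HERC2 were the rises with the smallest p, and USP16, UBE2V2, TRIM37 and UBE2A the falls. USP37, which stabilises cyclin A, rose from 41.2 ± 2.60 to 57.6 ± 4.06 CPM (0.48 ± 0.10 SE, adjusted p = 0.0015), with 32.8% of its exon length shared with another gene. TRIM37, a ligase that limits centrosome assembly, fell from 318 ± 20.5 to 262 ± 8.23 CPM (-0.28 ± 0.07 SE, adjusted p = 0.0035). In the anaphase-promoting complex outside the name rule 2 of 3 tested genes rose, CDC20 by 0.77 and FZR1 by 0.52, and ANAPC16 fell.

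The remaining lists of ubiquitin genes outside the name rule were mixed. Their counts stand beside 47.6% higher and 51.2% lower over all genes tested. Of 8 HECT and RBR ligases 5 rose and 3 fell. NEDD4L, a ligase of epithelial sodium channels, had 0.55 ± 0.06 (SE, adjusted p = 2.3e-05), and RBCK1, of the linear chain complex, had -0.43 ± 0.08 (SE, adjusted p = 5.4e-04). In the list of 29 other RING and U-box ligases 13 rose, 14 fell and 2 did not pass. RFWD3 and UBR4, of replication repair and of the N-degron pathway, had the smallest p (0.46 ± 0.06 and 0.42 ± 0.06). MDM2, the ligase of p53 and itself a p53 target, went from 829, 867 and 1096 CPM to 1237, 1259 and 1190.3 CPM (0.40 ± 0.09 SE, adjusted p = 0.0024). The p97 list, for the segregase that pulls tagged proteins from membranes and complexes, had 6 lower, 2 higher and 1 not passing of 9. SQSTM1, the autophagy receptor of ubiquitinated cargo, had -0.77 ± 0.06 (SE, adjusted p = 3.0e-06) and UBXN11 had 0.62 ± 0.14 (SE, adjusted p = 0.0024). VCP, SKP2 and KEAP1 were not analysed here.

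Base composition and control 3 differed between members that rose and members that fell, as they did over all genes tested. The median GC content of the longest coding transcript was 52.1% in members that rose and 44.2% in those that fell, and 52.8% and 45.4% over all genes tested. Control 3 lay a median of 0.10 below the mean of controls 1 and 2 in members that rose and 0.11 above it in members that fell. Over all genes tested these medians were -0.11 and 0.07. Control 3 is itself part of the control level behind each fold change, so this link is partly built in. Across the 130 members GC content and the deviation of control 3 had r = -0.57 (Spearman -0.65), and GC content and the fold change had r = 0.16 (0.19). The members share libraries, so these are descriptions across genes. Without control 3, 124 members passed, 57 higher and 67 lower, and after a correction for GC content and length 105 passed, 51 higher and 54 lower. The part of base composition in the changes was not tested beyond this.

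**Figure D5:**
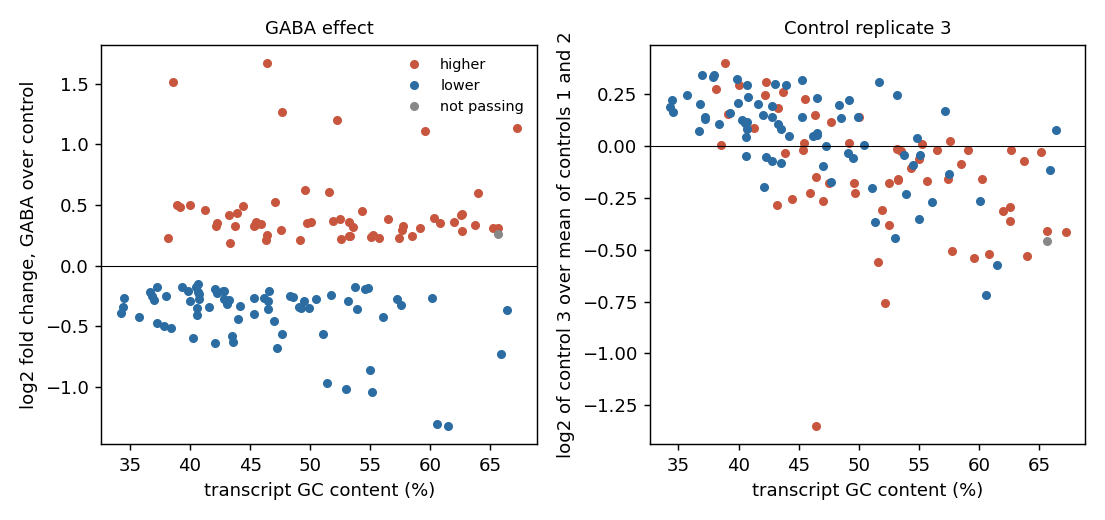
Members by GC content of their longest coding transcript (%), against the log2 fold change for GABA over control (left) and the log2 of control 3 over the mean of controls 1 and 2 (right); colours are the edgeR calls and the 2 vertical scales differ. The left panel shows rises and falls over the whole GC range, and in the right panel most members above 55% GC lie below 0.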

How the data were processed

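RNA was sequenced in 6 Huh7 libraries, 3 control and 3 GABA for 24 h. The authors deposited raw read counts per Ensembl gene, with each library in its own file. The build was hg38 and the tools named are Bowtie 0.12.2 and CASAVA 1.8, per the submitters' processing notes. The counting program, annotation and use of strand are not given in the sources used here, so overlapping genes are uncertain. Symbols came from a gene name table (4904 genes) and GENCODE 29 (283). edgeR 4.0.16 in R 4.3.3 was run on all listed genes: filterByExpr (minimum count 10, total 15) left 4981 and removed 206, followed by TMM, a robust quasi-likelihood fit, its F test and Benjamini-Hochberg adjustment at 0.05. Fold changes have the SE of that fit; levels have the SD over 3 libraries.

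The members and lists were chosen with earlier results of these data known. Named by rule were, per family, the 4 smallest p and the 2 largest changes at 5 CPM or more, every proteasome, cullin, HERC, OTUD and KCTD member, the 2 smallest p of each other list, and a fixed set that includes RPS27A, UBA1, NFE2L1, MDM2, SKP2, KEAP1, VCP and SQSTM1. Some genes the rule takes are not reported here. Other names were chosen after their values were seen. Copies were found with BLAST 2.17.0 (95% identity, 100 bases or more). Promoters are from the RefSeq table, and 108 members matched. Alternatives were DESeq2 1.42.0, its size factors in edgeR, upper quartile and library size scaling, other filters, limma-voom (limma 3.58.1), a replicate block and each library left out; the GC and length correction was added after the data were seen. The fit was also run on simulated counts in which most genes were unchanged, unlike the listed genes. Tables and figures used Python 3.11.15 (pandas 2.3.3, matplotlib 3.10.9).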

Additional observations from a re-analysis of the deposited data

How the results depend on the processing

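Over 15 other settings the 130 members gave 1950 values, of which 1750 kept direction and side of the threshold. Another 193 kept direction but missed the threshold, 7 passed anew (all UBE2M) and 0 reversed. These settings reuse the same libraries on a list whose order follows the p-value of this comparison. Few reversals and many kept calls were therefore built in and are no independent check. The same applies to calls said above to hold in every setting. In 77 members nothing changed, and 52 lost the call in 1 or more settings. Members called were 101 to 124 with a library left out, with the lowest values without GABA 1 or 2, and 105 to 130 under the other settings. With DESeq2 55.1% of the called members were higher, against 45.0% in the reported fit, and with its size factors in edgeR 52.7%. The GC and length correction moved the median log2 fold change of all genes from -0.18 to -0.06. The replicate number as a block gave 126 members, 59 higher and 67 lower. Same-numbered libraries did not deviate together (correlations 0.000333, -0.089 and -0.0363), and no library correlated best with its own number. F-box genes that fell were 4 to 7, RNF genes 6 to 15 and KLHL genes 3 to 5 over the settings. Settings for normalized values were not run on counts. The files hold almost no unchanged genes, and no setting shows how many ubiquitin genes did not respond. At 7702666 to 8392945 counts per library on the listed genes, depth limits most the 9 members under 10 CPM.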

Other observations

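The following groups were chosen after their values were seen and are given as values. Both ligases best known from muscle wasting were listed, and they moved apart. TRIM63 rose by 1.20 ± 0.23 (SE), while FBXO32, atrogin-1, went from 12.5, 12.6 and 11.8 CPM in controls 1 to 3 to 8.99, 7.24 and 8.38 CPM with GABA, all GABA libraries lower (-0.58 ± 0.17 SE, adjusted p = 0.0077). Among members best known from germ cells, FBXO43 and FBXO24 rose by 1.51 and 1.11, and RNF212, of meiotic crossover sites, fell from 92.6 ± 11.7 to 74.4 ± 4.96 CPM (SD, n = 3; -0.32 ± 0.10), a call that was lost without GABA 2 (adjusted p = 0.058).

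Genes that place ubiquitin on histone H2B also moved apart. The partner ligases RNF20 and RNF40 rose by 0.33 and 0.35, and the E2 enzymes that serve them, UBE2A and UBE2B, fell by 0.27 and 0.21. RNF40 stood at 114, 137 and 87.5 CPM and 147, 145 and 139 CPM, control 2 just under the lowest GABA library. Its call was lost without GABA 1 (adjusted p = 0.061) or GABA 2 (0.051), and 47.2% of its exon length is shared with another gene. In the p53 circuit MDM2 rose by 0.40 and MDM4, its partner, fell from 165 ± 29.2 to 123 ± 10.3 CPM (-0.43 ± 0.11 SE, adjusted p = 0.0052).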
